A study of Mus musculus with 8 samples.

Results

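Il1b, Il1rn, Tnf and Acod1 are the genes of the agonist interleukin-1β, its natural receptor antagonist, tumour necrosis factor and the enzyme that makes itaconate. They were taken by name, and all 4 were found among the 10970 genes of a table of UMI counts in single mouse neutrophils. A UMI (unique molecular identifier) marks 1 captured transcript, so copies made by amplification count once. All 4 genes passed the filter on low counts that left 8478 genes for testing. Neutrophils were isolated with a negative-enrichment kit from blood (PB, peripheral blood) and from marrow (BM, bone marrow) of male C57BL/6 J mice that had been injected intraperitoneally with PBS or with LPS at 0.5 mg/kg. Single cells were picked by mouth pipette and sequenced by SCRB-seq, a plate method that counts transcripts at their 3′ end. The 4 groups were PBS-primed PB, LPS-primed PB, PBS-primed BM and LPS-primed BM neutrophils. Each group had 2 labelled samples. In the labels PBS goes with 0 h and LPS with 4 h, whereas the study's methods describe a preparation 4 h after either injection. The labels do not say whether the 2 samples of a group came from different mice, and p-values therefore measure only the spread between these samples.

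Interleukin-1β is made as an inactive precursor that caspase-1 cuts inside inflammasomes, and it signals through the type 1 receptor with the adaptor MyD88. The product of Il1rn occupies the same receptor without signalling, so the balance of agonist to antagonist sets how much signal a given receptor can pass on. Tumour necrosis factor is released from the cell surface by the protease ADAM17, and ACOD1 (older symbol Irg1) diverts cis-aconitate from the citrate cycle to itaconate, a metabolite of LPS-stimulated myeloid cells that inhibits succinate dehydrogenase and activates NRF2. LPS is sensed by TLR4, with CD14, and all 4 genes are known targets of NF-kB in myeloid cells.

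The 8 labelled samples held 711 cells, 83 to 92 in each, and 3240559 to 8361677 UMIs, with a median of 32295 to 76133 UMIs per cell. All came from the batch that the authors call 7. The other 710 cells, of batch 6, carry a group and a plate in their names but match no labelled sample. They are given as plate values with no test, and enter 1 alternative fit as 1 pooled value per group with batch as a term. All 12 neutrophil markers looked for were present in every sample and plate, with a summed level of 123079 to 441034 CPM (UMIs per 1000000 UMIs of the sample). PBS-primed PB neutrophils also held transcripts of other cell types. T or NK cell markers (12 of 14 in the table) summed to 849 and 1048 CPM in PB after PBS against 2.34 and 2.55 CPM after LPS. Platelet markers (8 of 8) summed to 602 and 364 CPM against 145 and 109 CPM. Liver markers (8 of 8) summed to 1634 and 2535 CPM in the PBS-primed and 922 and 956 CPM in the LPS-primed labelled PB samples, and to at most 1.08 CPM on the PB plates of batch 6. Monocyte markers (11 of 14 in the table) summed to 709 and 543 CPM before and 1333 and 1177 CPM after LPS in PB, where Ly6c2 led. Ly6c2 alone gave 874 and 640 CPM of the LPS sums, and it also led in the labelled BM samples, at 758 to 896 CPM. Of the 11 monocyte markers, 9 and 8 had a UMI in PB after PBS and 6 and 6 after LPS. The median over cells of the authors' ERCC spike-in ratio, whose denominator is not given, was 0.633 and 0.664 after PBS and 0.520 and 0.498 after LPS in PB. The part of these markers and of this ratio in the results below was not tested beyond leaving out the 11 labelled cells in which such markers held over 1% of the UMIs. Without those cells the log2 fold change of LPS over PBS in PB was 3.37 for Il1rn (edgeR adjusted p = 0.000199) and 5.16 for Acod1 (edgeR adjusted p = 9.44e-05).

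The sequences before the start sites are shown because the 4 genes share regulators and because their levels moved apart in these cells. Il1b lies at chr2:129190306-129196875 on the minus strand, Il1rn at chr2:24192373-24207014 on the plus strand, Tnf at chr17:35336326-35338952 on the minus strand and Acod1, listed as Irg1, at chr14:103446194-103455790 on the plus strand of mm9, the build the authors aligned to. The 250 bases before each annotated RefSeq start are given from GRCm38.p6, 5′ to 3′ on the strand of the gene. Il1rn has 3 such starts, of which the first and the last are shown, since the window of the middle start overlaps that of the last. Capitals mark matches on either strand to 6 short motifs: NF-kB (GGG and TTCC with any 3 bases between them), the ETS core (GGAAGT), C/EBP (TTGNNCAA), AP-1 (TGANTCA), the interferon response element (GAAA and GAAA with any 2 bases between them) and the TATA box (TATAAA).
Il1b, chr2:129371140-129371389, minus strand: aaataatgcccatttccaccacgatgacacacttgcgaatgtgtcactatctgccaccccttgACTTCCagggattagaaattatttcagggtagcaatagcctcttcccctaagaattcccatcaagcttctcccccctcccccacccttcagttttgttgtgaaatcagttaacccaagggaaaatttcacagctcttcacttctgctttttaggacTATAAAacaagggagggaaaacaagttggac
Il1rn, first start, chr2:24336610-24336859, plus strand: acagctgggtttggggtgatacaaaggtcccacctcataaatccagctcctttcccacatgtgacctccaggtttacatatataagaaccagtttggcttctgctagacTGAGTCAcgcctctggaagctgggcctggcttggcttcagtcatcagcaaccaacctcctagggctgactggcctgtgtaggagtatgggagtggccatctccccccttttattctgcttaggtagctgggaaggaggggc
Il1rn, last start, chr2:24345121-24345370, plus strand: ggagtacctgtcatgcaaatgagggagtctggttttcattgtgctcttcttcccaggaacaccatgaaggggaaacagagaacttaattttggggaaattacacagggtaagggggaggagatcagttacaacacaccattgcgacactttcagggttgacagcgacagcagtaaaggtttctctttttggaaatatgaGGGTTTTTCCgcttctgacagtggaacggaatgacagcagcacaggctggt
Tnf, chr17:35202008-35202257, minus strand: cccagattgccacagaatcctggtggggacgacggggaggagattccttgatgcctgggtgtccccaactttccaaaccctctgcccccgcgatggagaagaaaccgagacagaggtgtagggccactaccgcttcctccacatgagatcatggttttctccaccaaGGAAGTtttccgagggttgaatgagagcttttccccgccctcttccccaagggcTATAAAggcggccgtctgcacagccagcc
Acod1, chr14:103046762-103047011, plus strand: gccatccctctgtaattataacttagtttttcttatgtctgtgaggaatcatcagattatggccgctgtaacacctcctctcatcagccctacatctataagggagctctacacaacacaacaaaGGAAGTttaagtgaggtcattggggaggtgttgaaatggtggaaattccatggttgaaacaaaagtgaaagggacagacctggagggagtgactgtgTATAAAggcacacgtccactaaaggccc

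Il1b, Tnf and Acod1 each held 1 match to the TATA motif, beginning 31, 29 and 28 bases before the start, and 1 match to the ETS core, beginning 187, 83 and 125 bases before it. None of the 3 starts of Il1rn had either letter string in its window. The first start of Il1rn held an AP-1 match 141 bases before it, the last start an NF-kB match 51 bases before it, and the middle start 0 matches. Of the 32851 promoters in the same table, 12.4% held the TATA letters, 19.7% the ETS core, 6.75% the AP-1 letters and 4.65% the NF-kB letters. C/EBP letters stood in 5.65% and the interferon element in 2.98% of them, and in none of the windows of these 4 genes. A match is a string of letters and not a shown binding site, and a missing match says only that these letters are not in the window.

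In blood neutrophils Il1rn and Acod1 rose after LPS, whereas the direction for Il1b depended on the scaling. The agonist was the most abundant of the 4 genes in PBS-primed PB neutrophils, and after LPS the antagonist had come close to it. In marrow neutrophils none of the 4 genes passed the test after LPS, and Acod1 came nearest. These tests used edgeR's quasi-likelihood test on UMIs summed over the cells of each labelled sample, with TMM scaling and Benjamini-Hochberg adjustment over all 8478 genes at a threshold of 0.05, and log2 values are from this fit unless another setting is named. UMI counting at the 3′ end leaves gene length out, so CPM levels of different genes could be set side by side. As the sums run over cells, fewer cells with a transcript and fewer transcripts per cell cannot be told apart in them.

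**Figure D1:**
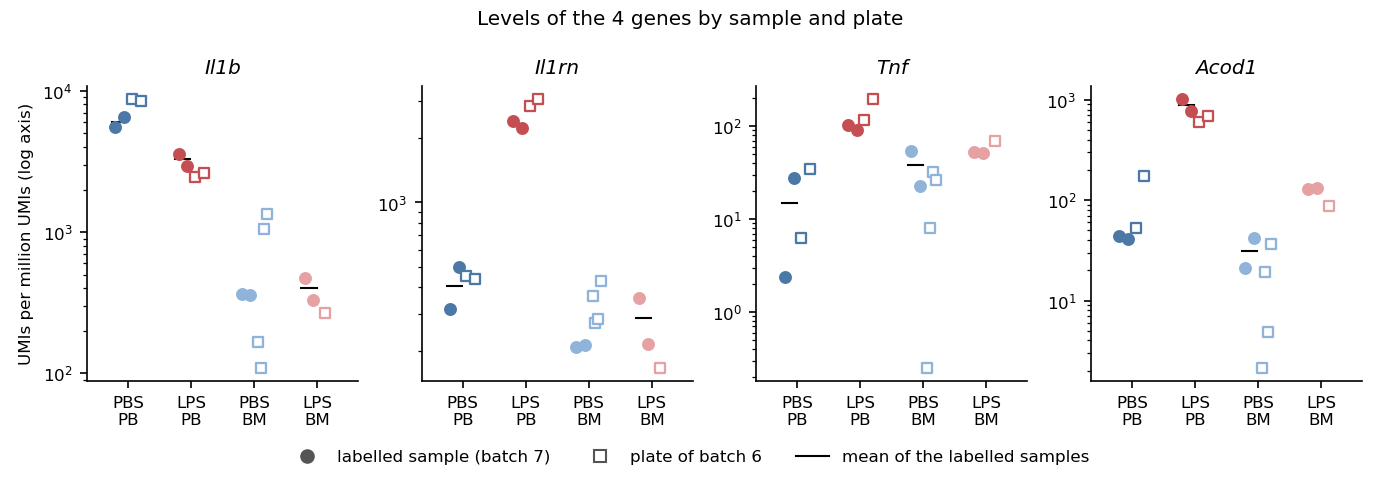
Level of each gene in CPM (y axis, log scale, own range in each panel) in the 4 groups (x axis). Filled circles are labelled samples, 2 per group, with a bar at their mean. Open squares are plates of batch 6. Il1rn lay between 2242 and 3048 CPM in every LPS-primed PB sample and plate and at or under 497 CPM in all others.

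Il1b, the agonist, stood at 5551 and 6466 CPM in PBS-primed PB neutrophils, which made it the 13th and the 10th most abundant gene in them. After LPS the PB samples held 3583 and 2939 CPM. The PB plates of batch 6 held 8674 and 8517 CPM after PBS and 2464 and 2608 CPM after LPS. Within each batch every PBS-primed PB value was thus above every LPS-primed PB value. In CPM the mean was 6008 ± 647 (SD, n = 2) before and 3261 ± 455 (SD, n = 2) after LPS. With TMM scaling, however, the log2 fold change of LPS over PBS was 0.03 (SE 0.20, edgeR adjusted p = 0.984), and with library size alone it was -0.89 (SE 0.21, edgeR adjusted p = 0.0351). The TMM factors were 1.35 and 1.37 for the PBS-primed and 0.748 and 0.694 for LPS-primed PB neutrophils. Over all genes tested the median log2 fold change moved from -0.11 with TMM to -1.02 with library size alone. Under either scaling Il1b stood slightly above that median. UMIs of Il1b per cell, which carry no scaling, were 311 and 244 before and 252 and 201 after LPS, and these ranges overlapped. On the PB plates of batch 6 they were 451 and 540 after PBS and 312 and 267 after LPS, and did not overlap. Those LPS plates were the deeper ones, with medians of 117374 and 87908 UMIs per cell against 46355 and 62528.

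In BM neutrophils Il1b was low. The PBS-primed samples held 367 and 357 CPM and the LPS-primed samples 473 and 329 CPM, so the 2 groups overlapped (log2 fold change -0.04, SE 0.20, edgeR adjusted p = 1.0). Against BM and with TMM, PB neutrophils carried 11.6 times as much Il1b after PBS (log2 3.53, SE 0.22, edgeR adjusted p = 6.06e-06) and 12.1 times as much after LPS (log2 3.60, SE 0.22, edgeR adjusted p = 1.89e-05). With library size alone the gap was log2 4.06 after PBS and 3.02 after LPS. Whether it narrowed after LPS thus depended on the scaling. The BM plates of batch 6 were spread more widely, with 166, 109, 1059 and 1332 CPM after PBS and 267 CPM on the single LPS plate. The 2 high values belong to both parts of plate 3.

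Il1rn, the antagonist, was at 315 and 497 CPM in PBS-primed PB neutrophils and at 2416 and 2242 CPM after LPS. The groups did not overlap, and the antagonist rose to the 39th and 43rd most abundant gene from the 462nd and 263rd. With TMM the log2 fold change was 3.43 (SE 0.31, edgeR adjusted p = 0.000101), or 10.8-fold. It was smaller with library size alone, at log2 2.52 (edgeR adjusted p = 0.00151). Batch 6 gave 449 and 439 CPM after PBS and 2840 and 3048 CPM after LPS. BM samples held 209 and 213 CPM after PBS and 354 and 217 CPM after LPS (log2 0.25, SE 0.28, edgeR adjusted p = 0.959). In CPM, which carries no TMM scaling, the LPS values were above the PBS values only by 217 against 213. On the plates of batch 6 the order in BM was the other way, with 271 to 429 CPM after PBS and 167 CPM after LPS. The LPS effect on Il1rn was larger in PB than in BM by 3.19 on the log2 scale (SE 0.41, edgeR adjusted p = 0.002). With library size alone that difference was 2.08 and its adjusted p was 0.0547.

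In PB, Tnf was the scarcest of the 4 genes. PBS-primed PB samples held 2.38 and 27.8 CPM, from 12 and 90 UMIs, and LPS-primed PB samples held 104 and 89.9 CPM, from 663 and 529 UMIs. The LPS values were all higher, also on the plates of batch 6 with 6.33 and 34.7 CPM against 117 and 194 CPM. The log2 fold change in PB was 3.61 with an SE of 1.03, and the edgeR adjusted p was 0.0909, which missed the threshold. DESeq2 (adjusted p = 0.00325), limma (adjusted p = 0.0416) and the edgeR fit over both batches (adjusted p = 0.00299) passed it, and so did the fit without the PBS-primed PB replicate 2, where the log2 fold change was 6.19. In BM, Tnf was at 53.6 and 22.6 CPM after PBS and at 52.2 and 51.3 CPM after LPS, and the groups overlapped (log2 0.26, SE 0.93, edgeR adjusted p = 1.0). The BM plates of batch 6 held 0.25, 8.03, 32.5 and 26.3 CPM after PBS and 68.9 CPM after LPS.

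Acod1, the gene of the itaconate enzyme, was low in blood before LPS and rose after it. PBS-primed PB neutrophils held 43.8 and 40.7 CPM, and LPS-primed PB neutrophils 1009 and 768 CPM. With TMM the log2 fold change was 5.30 (SE 0.42, edgeR adjusted p = 4.14e-05), or 39.3-fold. It was smaller with library size alone, at log2 4.39 (edgeR adjusted p = 0.000276). Batch 6 gave 53.1 and 173 CPM after PBS and 606 and 691 CPM after LPS, a narrower gap in the same direction. In BM the PBS-primed samples held 21.1 and 41.9 CPM and the LPS-primed samples 130 and 132 CPM. These groups did not overlap either, and on batch 6 plates the values were 2.13 to 36.4 CPM against 87.3 CPM. The log2 fold change in BM was 1.86 (SE 0.36, edgeR adjusted p = 0.153), not past the threshold, whereas DESeq2 (adjusted p = 0.000495), the fit over both batches (adjusted p = 0.0381) and the fit without the PBS-primed BM replicate 2 (adjusted p = 0.03) called it. The LPS effect on Acod1 was larger in PB than in BM by 3.44 on the log2 scale (SE 0.51, edgeR adjusted p = 0.00524), and by 2.33 with library size alone (edgeR adjusted p = 0.078).

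Across all genes tested, 334 or 3.94% passed the test for LPS in PB, and Il1rn and Acod1 were among them. Ranked by fold among the 294 that were higher, Acod1 was 58th and Il1rn 119th. Of those 334 genes 294 were higher and 40 lower with TMM, against 140 higher and 268 lower of 408 with library size alone. In BM 6 genes or 0.0708% passed, and 0 of the 4 genes, while 684 genes had an unadjusted p under 0.05, Acod1 among them. DESeq2 called 191 genes in BM and limma 5. In PB against BM after PBS, 221 genes or 2.61% passed (100 higher in PB, and 213 of 297 with library size alone), with Il1b as the only member. After LPS 316 genes or 3.73% passed (277 higher in PB, and 157 of 263 with library size alone), with Il1b, Il1rn and Acod1. The LPS effect differed between PB and BM for 127 genes or 1.5%, with Il1rn and Acod1. The PB effect minus the BM effect was above 0 for 123 of them, and for 45 of 64 with library size alone. A value above 0 can also come from a fall in BM, as for Dusp1 (log2 0.40 in PB and -2.67 in BM).

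**Figure D2:**
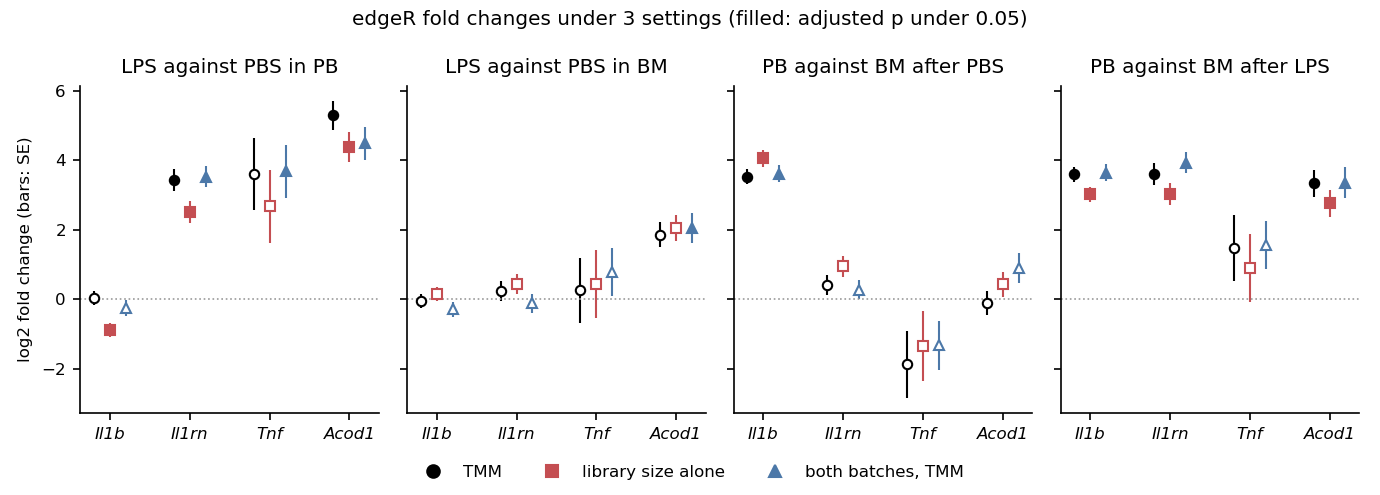
log2 fold change (y axis, bars are 1 SE) of the 4 genes in 4 comparisons under TMM scaling of the labelled samples, library size alone, and both batches with batch as a term. Filled symbols have an edgeR adjusted p under 0.05. For Il1b in PB the 3 settings gave 0.03, -0.89 and -0.25, on both sides of 0.

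Blood and marrow differed in which of the genes set them apart. After PBS only Il1b of the 4 genes passed the test of PB against BM. Il1rn was 0.42 higher on the log2 scale in PB (SE 0.28, edgeR adjusted p = 0.461), Tnf stood at -1.87 (SE 0.97, edgeR adjusted p = 0.332), and Acod1 stood at -0.10 (SE 0.35, edgeR adjusted p = 0.937), turning to 0.43 with library size alone. The Tnf value was -4.47 without PBS-primed PB replicate 2 and -0.93 without replicate 1 of that group. It was -1.16 without PBS-primed BM replicate 1, and none of these passed the threshold. After LPS, Il1rn was 12.2 times (log2 3.61, SE 0.31, edgeR adjusted p = 0.000117) and Acod1 10.1 times as high in PB as in BM (log2 3.34, SE 0.38, edgeR adjusted p = 0.00062). With library size alone these differences were log2 3.03 and 2.76. Tnf was 1.48 higher on the log2 scale with an SE of 0.95 (edgeR adjusted p = 0.45). The comparisons of PB after LPS share samples with those of LPS against PBS, so these values are not independent of each other.

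The ratio of Il1b to Il1rn UMIs within a sample needs no scaling, since both genes were read in the same cells. In PBS-primed PB neutrophils there were 17.6 and 13 agonist UMIs for each antagonist UMI. After LPS there were 1.48 and 1.31. The log2 ratios were 4.14 and 3.70 against 0.57 and 0.39 (3.92 ± 0.31 and 0.48 ± 0.13, SD, n = 2), a difference of -3.44, or 10.9-fold. On the plates of batch 6 the ratio was 19.3 and 19.4 after PBS and 0.868 and 0.856 after LPS, so there the antagonist outnumbered the agonist. In BM the labelled samples had 1.76 and 1.68 after PBS and 1.34 and 1.52 after LPS, a log2 difference of -0.27. The 4 BM plates of batch 6 after PBS ran from 0.403 to 3.72 and enclosed the LPS plate at 1.60.

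An exact permutation test (two-sided) on 2 against 2 samples cannot give a p below 0.333. The fall in PB, the small fall in BM and the difference of PB from BM after PBS all reached that value. The test thus cannot set the fall in PB apart from that in BM. With LPS and PBS permuted within tissue over all 8 samples (exact permutation test), the mean difference of -1.86 gave p = 0.0556, the smallest p that the 36 arrangements allow. That mean includes BM, where the pooled cells of batch 6 gave a difference of 0.14. With PB and BM permuted within treatment (exact permutation test), the mean difference of 1.55 gave p = 0.278. After LPS the ratios in PB (1.48 and 1.31) and BM (1.34 and 1.52) overlapped, with a log2 difference of -0.03, although with TMM both transcripts were higher in PB, 12.1-fold for Il1b and 12.2-fold for Il1rn. In batch 6 they did not overlap, as both PB plates (0.868 and 0.856) were below the BM plate (1.60), and the log2 difference of the pooled cells was -0.89. The LPS effect on the log2 ratio was -3.44 in PB and -0.27 in BM, and that difference of -3.17 was not tested. In the pooled cells of batch 6 it was -4.63.

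**Figure D3:**
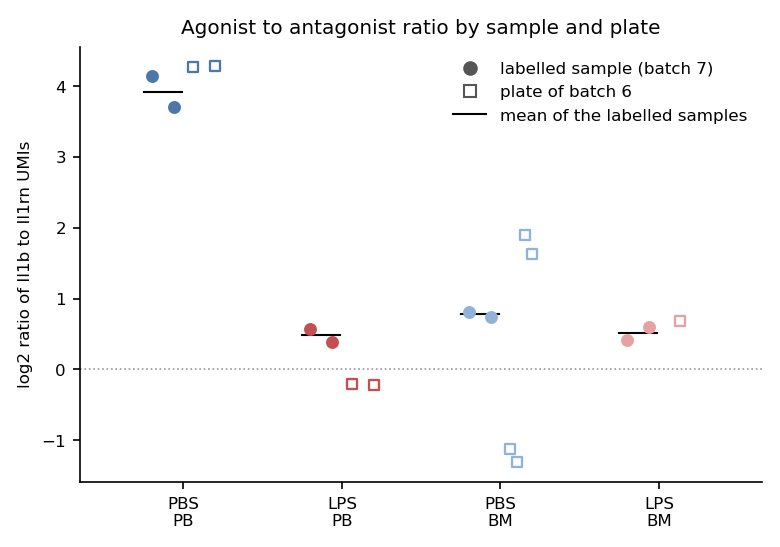
log2 ratio of Il1b to Il1rn UMIs (y axis) in the 4 groups (x axis). Circles are labelled samples with a bar at their mean, and squares are plates of batch 6. The dotted line marks equal numbers of both. PBS-primed PB values lie between 3.70 and 4.28 and all other values at or under 1.89.

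The levels were also read cell by cell. To set cells of different depth side by side, each cell was thinned to 5000 UMIs. Il1b was then found in 96.7% and 98.8% of PBS-primed PB cells and in 87.9% and 83.7% of LPS-primed PB cells. Without thinning the shares were 100%, 100%, 98.9% and 100%. The thinned shares on the PB plates of batch 6 were 97.7% and 95.2% after PBS and 71.6% and 92.3% after LPS. Cells with at least 1000 CPM of Il1b made up 88.9% and 90.7% of PBS-primed and 69.2% and 60.5% of LPS-primed PB cells, and on the LPS plates of batch 6 33.7% and 51.6%. The median PB cell carried less Il1b in CPM after LPS, with 5365 and 5345 CPM against 2440 and 2102 CPM. On the plates of batch 6 the medians were 7387 and 6562 CPM after PBS and 246 and 1067 CPM after LPS. The highest 10% of cells held 36.8% and 39.4% of the Il1b UMIs before and 44.0% and 51.2% after LPS, and 37.3% and 39.2% against 67.1% and 51.5% in batch 6. Among the 27 PBS-primed PB cells of both batches with over 1% of UMIs in markers of other cell types, 24 still held Il1b after thinning. Without thinning, Il1b stood at 3118 CPM over all 27 cells and at 7766 CPM over the other 321 cells.

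Il1rn was found in 37.8% (95% interval 27.8 to 48.6) and 44.2% (33.5 to 55.3) of thinned PBS-primed PB cells and in 86.8% (78.1 to 93.0) and 90.7% (82.5 to 95.9) of LPS-primed PB cells. The intervals of the 2 groups did not meet. These intervals are exact Clopper-Pearson intervals and cover counting error only. Without thinning the shares were 75.6% and 79.1% before and 98.9% and 100% after LPS. In batch 6 the thinned PB shares were 51.1% and 41.7% after PBS and 96.8% and 95.6% after LPS. In BM the thinned shares were 30.1% and 28.3% after PBS and 53.8% and 37.0% after LPS (69.9% and 65.2% against 84.6% and 80.4% without thinning), while the summed level had not passed the test. The BM plates of batch 6 did not show this order, with 34.5%, 49.5%, 57.8% and 52.3% after PBS and 34.1% after LPS. Acod1 went from 13.3% and 12.8% of PB cells to 73.6% and 67.4%, and in BM from 4.82% and 14.1% to 25.3% and 25%. On the BM plates of batch 6 its thinned share was 0 to 6.59% after PBS and 18.2% after LPS. Without thinning, the Acod1 shares were 46.7% and 43.0% against 94.5% and 97.7% in PB, and 15.7% and 46.7% against 59.3% and 60.9% in BM.

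Tnf was found in a minority of thinned cells in every sample and plate. After thinning it was found in 1.11% (95% interval 0.0281 to 6.04) and 2.33% (0.283 to 8.15) of PBS-primed PB cells and in 15.4% (8.67 to 24.5) and 12.8% (6.56 to 21.7) of LPS-primed PB cells. The LPS-primed PB plates of batch 6 had higher shares, at 28.4% and 31.9%, against 1.14% and 4.76% after PBS. In BM the shares were 7.23% and 4.35% against 11.0% and 13% (19.3% and 26.1% against 42.9% and 42.4% without thinning). The thinned shares on the BM plates of batch 6 did not repeat this order. They ran from 0 to 13.6% after PBS and enclosed the LPS plate at 10.2%. At full depth that LPS plate, at 51.1%, was above the PBS plates, at 2.38% to 38.6%. Without thinning, 8.89% and 12.8% of PBS-primed and 53.8% and 26.7% of LPS-primed PB cells had a UMI of Tnf. In batch 6 the unthinned PB shares were 23.9% and 17.9% after PBS and 76.8% and 95.6% after LPS. Most LPS-primed PB cells there thus held the transcript at full depth, but not at equal depth. Those LPS plates were deeper, with medians of 117374 and 87908 UMIs per cell. The PBS plates had 46355 and 62528, and the labelled LPS-primed PB samples 50838 and 51448. The 2 cells with the most Tnf held 44.3% and 66.9% of its UMIs in PB after LPS, and 50% and 90.0% after PBS. On the PB plates of batch 6 they held 16.5% and 25.3% after LPS and 34.5% and 74.6% after PBS.

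**Figure D4:**
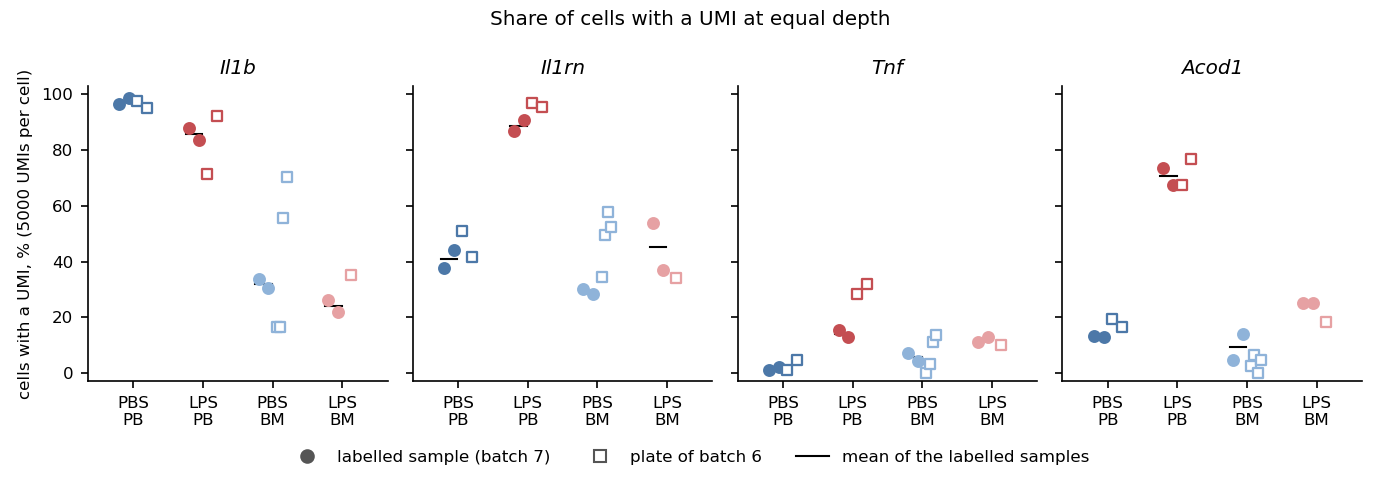
Share of cells with at least 1 UMI of each gene after every cell was thinned to 5000 UMIs (y axis, percent) in the 4 groups (x axis). Circles are labelled samples with a bar at their mean, and squares are plates of batch 6. In PB the Acod1 shares lie at 12.8% to 19.3% after PBS and at 67.4% to 76.9% after LPS.

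The make-up of PB cells by the pair of transcripts differed after LPS. After thinning, 58.9% and 54.7% of PBS-primed PB cells had Il1b without Il1rn, 37.8% and 44.2% had both, and 0 had Il1rn alone. After LPS 74.7% and 76.7% had both, 13.2% and 6.98% Il1b alone, and 12.1% and 14.0% Il1rn alone. On the LPS-primed PB plates of batch 6, 69.5% and 87.9% had both, 2.11% and 4.40% Il1b alone, and 27.4% and 7.69% Il1rn alone. Among cells with at least 10 UMIs of the pair, Il1b outnumbered Il1rn in 96.6% and 98.8% of PBS-primed PB cells. After LPS it did so in 58.4% and 59.3% of cells, and in 22.8% and 28.6% on the plates of batch 6. The median cell of the labelled LPS-primed PB samples had 1.91 and 1.53 agonist UMIs per antagonist UMI, and the lower quartile of the log2 ratio was -1.10 and -1.09.

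How far Il1b and Il1rn ranked together across the cells of PB differed between batches after LPS. Spearman's rho across the cells was -0.03 and 0.04 for PBS-primed PB and 0.08 and 0.21 for LPS-primed PB neutrophils, and 0.44 and 0.44 on the LPS-primed PB plates of batch 6. Il1rn and Acod1 had rho of 0.35 and 0.38 in PB after LPS against 0.15 and -0.15 after PBS, and on the plates of batch 6 of 0.33 and 0.19 against 0.20 and 0.01. These are descriptions over 84 to 95 cells that share a plate and differ in depth.

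**Figure D5:**
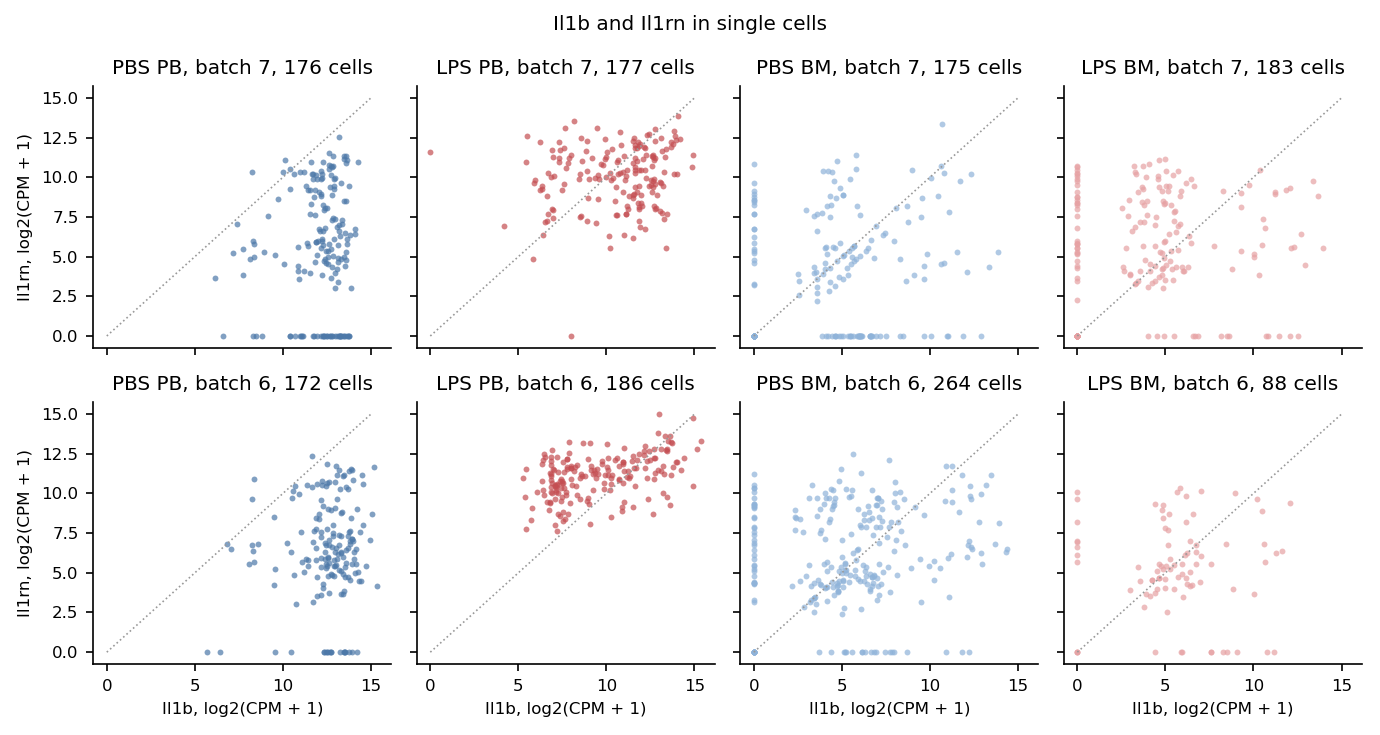
Il1rn against Il1b in single cells, both as log2(CPM + 1), for the 4 groups in batch 7 (upper row) and batch 6 (lower row). Each point is a cell and the dotted line marks equal levels. Most PBS-primed PB cells lie to the right of the line, and LPS-primed PB cells lie on both sides of it, with 58.4% and 59.3% of the cells counted in batch 7 and 22.8% and 28.6% in batch 6 carrying more Il1b.

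The authors' annotation puts the cells in clusters 0, 1 and 2. Per the study's methods, dimension reduction used a set of highly variable genes, and whether these 4 genes were in it is not given. The clusters come from the same counts, so the values are a description. Cluster 1 held 98.9% and 98.8% of the PBS-primed PB cells. In the LPS-primed PB samples, 48 and 35 cells were in cluster 1, 42 and 42 in cluster 2, and 1 and 9 in cluster 0. In cluster 2 the ratio of Il1b to Il1rn was 0.875 and 0.882, and in cluster 1 of the same samples it was 3.05 and 3.71. Acod1 stood at 1276 and 993 CPM in cluster 2 and at 676 and 296 CPM in cluster 1. On the PB plates of batch 6, 185 of 186 LPS-primed cells were in cluster 2, at a ratio of 0.856. The labelled samples and the plates of batch 6 thus differed in the make-up of their LPS-primed PB cells, and its part in the batch difference of the ratio was not tested.

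In marrow the agonist sat mostly in few cells. After thinning, Il1b was found in 33.7% and 30.4% of BM cells after PBS and in 26.4% and 21.7% after LPS, and without thinning in 80.7%, 77.2%, 73.6% and 70.7%. The thinned shares in batch 6 were 16.7%, 16.5%, 55.6% and 70.5% after PBS and 35.2% after LPS. The highest 10% of cells held 86.7% and 86.9% of the Il1b UMIs after PBS and 87.2% and 88.1% after LPS. The 7 and 6 PBS-primed BM cells in cluster 1 had 2076 and 4987 CPM of Il1b and ratios of 8.52 and 18.0, whereas the 76 and 86 cells in cluster 0 had 128 and 143 CPM and ratios of 0.629 and 0.680. In batch 6, cluster 1 made up 24.4% and 18.2% of the cells on the 2 parts of plate 3, where Il1b was highest, and 8.33% and 2.20% on plates 1 and 2. Of the labelled BM cells with at least 10 UMIs of the pair, 46.7% and 41.7% carried more Il1b than Il1rn after PBS and 32.7% and 38.3% after LPS. In batch 6 the shares were 31.0%, 20%, 58.3% and 63.6% after PBS, and the LPS plate, at 48.8%, lay among them.

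The genes whose levels followed those of each member most closely over the 8 labelled samples were found by Pearson's r of log2(CPM + 1) among 2306 genes with a mean of at least 50 CPM. For Il1b they were Serpina1e (r = 0.998), Apoc1, Ctla2a, Mup3 and Serpina3k. Apart from Ctla2a these are genes of the liver, at 70.9 to 291 CPM for Serpina1e in PB and at most 0.13 CPM in BM, and the liver markers that moved with them were at or under 1.08 CPM on the PB plates of batch 6, where Il1b stood at 2464 to 8674 CPM. For Il1rn they were Hdc (r = 0.982), the gene of histidine decarboxylase, the NF-kB inhibitor gene Nfkbia, Cxcl10, Fth1 and Uba7. For Tnf they were Tlr2 (r = 0.988), Ap3b1, Gyg, Cyfip1 and BC100530. For Acod1 they were Sipa1l1 (r = 0.985), Sp100, Id2, Napsa and Mapkapk2, the gene of a kinase that stabilises cytokine mRNAs. Among the members themselves the closest pair was Il1rn and Acod1 (r = 0.877, Spearman's rho = 0.691), followed by Il1b and Il1rn (r = 0.613), whereas Il1b and Tnf had r = -0.279. All of these are descriptions over 8 samples in 4 groups.

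The other ligands of the interleukin-1 family were scarce or did not pass the test. Of 10 genes listed, 5 were in the table and tested. LPS in PB called 1 of them, Il1rn (3.94% of all genes tested were called), and all 5 had fold changes above 0 with TMM, Il1b turning below 0 with library size alone, with a median log2 fold change of 2.61 against -0.11 over all genes. Il1a, the gene of the second agonist, was singled out after its values were seen. It stood at 0.2 and 0.62 CPM before and 19.5 and 28.0 CPM after LPS in PB (edgeR adjusted p = 0.239) and at 0 CPM in all 4 BM samples.

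Of 10 receptors and decoys of the family, 8 were in the table and 5 tested. LPS in PB called 2 of the 5, both higher, against 3.94% of all genes, and the other 3 missed the threshold. Il1r2, the decoy receptor that binds interleukin-1β without signalling, went from 333 and 489 CPM to 1717 and 2031 CPM (log2 3.11, SE 0.38, edgeR adjusted p = 0.000838). Il18bp, which neutralises interleukin-18, went from 32.3 and 13 CPM to 169 and 254 CPM (log2 4.13, SE 0.65, edgeR adjusted p = 0.0044). In BM neither passed (log2 -0.14 for Il1r2), and for both the LPS effect was larger in PB than in BM (log2 3.25 and edgeR adjusted p = 0.00787 for Il1r2, log2 6.12 and edgeR adjusted p = 0.0047 for Il18bp). Il18bp held 77.15 and 40.54 CPM in BM after PBS and 17.26 and 16.41 CPM after LPS. Part of its difference thus comes from lower values in BM after LPS. With library size alone the adjusted p of that difference was 0.095 for Il1r2 and 0.0387 for Il18bp. Il18rap, a chain of the interleukin-18 receptor, stood at 266 and 200 CPM before and 447 and 237 CPM after LPS in PB, with overlapping samples (log2 1.45, SE 0.41, edgeR adjusted p = 0.0906).

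Of the 15 genes of inflammasomes and interleukin-1 processing, 11 were tested and LPS in PB called 3, all higher, where 3.94% of all genes were called, 294 of 334 of them higher. Casp8 (log2 4.13, edgeR adjusted p = 0.00898), Casp4 (log2 2.95, edgeR adjusted p = 0.023) and Casp1, whose product cuts the precursor of interleukin-1β (log2 2.48, edgeR adjusted p = 0.0118), all encode caspases. With library size alone their directions held, and Casp4 and Casp1 missed the threshold at adjusted p of 0.0783 and 0.0914. The median of the 11 was 0.42. In BM 0 of 11 passed, with Casp4 at 16.8 and 63.6 CPM after PBS and 248 and 240 CPM after LPS (edgeR adjusted p = 0.301). Ninj1, which ruptures the membrane of dying cells, stood at log2 0.42 for LPS in PB (edgeR adjusted p = 0.643).

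The receptors and adaptors upstream of the 4 genes, 19 of 20 tested, had 4 called for LPS in PB, all higher, beside 3.94% of all genes, which were also mostly higher with TMM. Irak3, an inhibitor of MyD88 signalling, went from 23.0 and 8.02 to 327 and 286 CPM (log2 5.19, SE 0.65, edgeR adjusted p = 0.000885). The LPS coreceptor gene Cd14 rose by log2 4.51 (edgeR adjusted p = 0.00423), the kinase gene Map3k8 by log2 3.95 and the lipopeptide receptor gene Tlr2 by log2 3.26 (both edgeR adjusted p = 0.0294). Map3k8 and Tlr2 missed the threshold with library size alone, at 0.0721 and 0.0883. Irak3 was also lower in PB than BM after PBS (log2 -2.52, edgeR adjusted p = 0.0455, and 0.115 with library size alone). That difference kept its sign in all 9 alternative settings but passed the threshold in only 4 of them. After LPS Irak3 was higher in PB (log2 4.39, edgeR adjusted p = 0.00233), and its LPS effect was larger in PB (log2 6.92, edgeR adjusted p = 0.00151). In BM it held 83.03 and 43.89 CPM after PBS and 25.89 and 17.75 CPM after LPS, which adds to that difference. Myd88 was higher in PB than BM after PBS (log2 1.98, edgeR adjusted p = 0.00762) and after LPS (log2 1.38, edgeR adjusted p = 0.0355, and 0.207 with library size alone).

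Around tumour necrosis factor, 13 of 14 genes of shedding, receptors and signalling were tested and LPS in PB called 2, beside 3.94% of all genes. Birc3, which encodes a ubiquitin ligase of the receptor complex, rose by log2 2.73 (edgeR adjusted p = 0.00932) and Tnfrsf1b, the gene of the second receptor, by log2 2.00 (edgeR adjusted p = 0.0278). Neither passed with library size alone (adjusted p of 0.0666 and 0.186). Tnfrsf1a, the gene of the first receptor, stood at log2 0.40 (edgeR adjusted p = 0.529). Of 16 ligands of the family, Tnf included, 6 were tested and 0 passed in any of the 5 comparisons by edgeR. The most abundant were Ltb (log2 0.05 for LPS in PB) and Tnfsf14 (log2 -0.74).

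Regulators of cytokine mRNA stability, 12 of 13 tested, had 1 gene called in each tissue for LPS, where 3.94% of all genes were called in PB and 0.0708% in BM. In PB 1 of 12 is near the share over all genes. Mapkapk2 rose in PB from 84.5 and 72.5 to 502 and 461 CPM (log2 3.53, SE 0.34, edgeR adjusted p = 0.000149). Dusp1, the gene of a phosphatase that switches off p38, fell in BM from 968 and 517 to 153 and 112 CPM (log2 -2.67, SE 0.29, edgeR adjusted p = 0.00578) and is 1 of the 6 genes called there. In PB Dusp1 held 2997 and 2701 CPM after PBS and 2007 and 1991 CPM after LPS, which TMM put at log2 0.40 (edgeR adjusted p = 0.495). Zfp36, which encodes the decay factor tristetraprolin, stood at log2 0.92 in PB (edgeR adjusted p = 0.0751) and 0.74 in BM (edgeR adjusted p = 0.587) and was higher in PB than BM after PBS (log2 1.22, edgeR adjusted p = 0.0274) and after LPS (log2 1.40, edgeR adjusted p = 0.00991, and 0.134 with library size alone).

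Of 24 genes of the citrate cycle and itaconate, 21 were tested, and LPS in PB called 1, Acod1 itself, a share near the 3.94% over all genes. The list had a median log2 fold change of -0.52 over the 21 against -0.11 over all genes. Mdh2, the most abundant tested gene of the list after Acod1, went from 282 and 205 CPM to 56.9 and 44.5 CPM (log2 -1.36, SE 0.37, edgeR adjusted p = 0.0773). Of 12 genes linked to NRF2 and ATF3, which itaconate is known to engage, 11 were tested and LPS in PB called 1, Nfkbiz (log2 1.70, edgeR adjusted p = 0.0284), also little different from 3.94%. With library size alone Nfkbiz was at log2 0.80 and missed the threshold at 0.25. Nfe2l2, the gene of NRF2, stood at log2 0.88 (edgeR adjusted p = 0.25).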

How the data were processed

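Per the study's methods and the submitters' processing notes, the authors trimmed reads with cutadapt 1.15, aligned them to mm9 with STAR 2.6.0a, removed duplicates by UMI and counted with HTSeq 0.11.2. The gene annotation is not given in the sources used here. The deposited table holds UMI counts without normalization for 1421 cells and 10970 genes, after the authors' filters on cells. The deposited annotation gives each cell's cluster, batch, plate and an ERCC ratio, a fraction whose denominator is not given. Of the columns, 0 were left unused. Doublets were not called.

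UMI counts were summed over the cells of each labelled sample. Cells of batch 6 have a group but no labelled sample. Genes found in at least 10 cells that passed filterByExpr were tested in 1 model of 4 groups (edgeR 4.0.16 quasi-likelihood, TMM, R 4.3.3), with DESeq2 1.42.0 and limma 3.58.1 on log2(CPM + 1) as alternatives. The study's own test ran over cells, which are not replicates. Ratios used 0.5 added UMIs, and cells were thinned to 5000 UMIs (the shallowest cell had 5012). Shares have 95% Clopper-Pearson intervals. On simulated data for LPS against PBS in PB (8592 genes, 40 changed at each fold), edgeR recovered 11 at 4-fold, 34 at 16-fold, 40 at 64-fold, 5 at 0.25-fold and 18 at 0.0625-fold, with 4 wrong among 112 calls.

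The members and lists were chosen with earlier results of these data known. From each list and comparison, up to 4 called genes of largest change and the 2 most abundant tested genes could be named, and for each member the 5 genes most like it. Alternatives were library size alone, RLE size factors, no filter, the other tools, a replicate block, thinned cells, leaving out cells with markers of other cell types, both batches, and leaving out each sample. Python 3.11.15, numpy 2.4.6, pandas 2.3.3, scipy 1.17.1 and matplotlib 3.10.9 were used.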

Additional observations from a re-analysis of the deposited data

Results flagged for a closer look

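The log2 fold change of LPS over PBS was larger in PB than in BM for 2 of the 4 genes, by the test of the difference itself. For Il1rn the difference was 3.19 (SE 0.41, edgeR adjusted p = 0.002), with 3.43 in PB and 0.25 in BM. For Acod1 it was 3.44 (SE 0.51, edgeR adjusted p = 0.00524), with 5.30 in PB and 1.86 in BM. With library size alone the differences were 2.08 and 2.33, and the edgeR adjusted p of 0.0547 and 0.078 missed the threshold. Leaving out each sample in turn gave adjusted p of 0.000521 to 0.0224 for Il1rn and 0.000759 to 0.0478 for Acod1.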

How the results depend on the processing

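Il1rn and Acod1 for LPS in PB, Il1b in PB against BM, and Il1rn and Acod1 in PB against BM after LPS kept direction and call under all 9 alternatives and without each sample. For Il1b and LPS in PB (0.03), the values were -0.89 with library size alone (adjusted p 0.0351), -0.06 with RLE, -0.0101 with no filter, -0.06 with DESeq2, -0.0425 with thinned cells, -0.12 without cells with other markers and -0.25 with both batches. Tnf in PB passed at 3.50 with DESeq2, 4.14 with limma and 3.69 with both batches. Acod1 in BM passed at 1.82 with DESeq2 and 2.05 with both batches. Other sign changes were Il1b in BM at 0.15 with library size alone, Il1rn in BM at -0.12 with thinned cells and -0.12 with both batches, and Il1rn in PB against BM after PBS at -0.0763 with thinned cells. Acod1 there was 0.43 with library size alone, 0.0312 without cells with other markers and 0.91 with both batches. The difference of LPS effects was -1.03 with library size alone and -0.0728 without cells with other markers for Il1b, and missed the threshold with library size alone at 2.08 for Il1rn and 2.33 for Acod1. The log2 ratio for LPS in BM was 0.0729 as a mean over cells, 0.0208 thinned and 0.14 in batch 6, and for PB against BM after LPS 0.0478 thinned and -0.89 in batch 6. The cause of these shifts was not tested.

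Genes called for LPS in PB numbered 1047 with DESeq2 and 651 with both batches, against 334. In BM they were 10 with library size alone, 15 with no filter, 191 with DESeq2, 43 thinned and 27 with both batches, against 6. For PB against BM after PBS they were 942 with DESeq2, 341 with limma and 416 with both batches, against 221. After LPS they were 930 with DESeq2 and 532 with both batches, against 316. For the difference they were 64 with library size alone, 487 with DESeq2 and 203 with both batches, against 127.

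With the replicate block, 13 genes were called in BM, and no call for the 4 genes changed. The difference between the 2 samples of a group did not correlate between groups (Pearson's r -0.0271 to 0.00518 over 8478 genes). With a single such difference per group, this cannot show whether same-numbered samples share an origin. The labels do not say so either.

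Leaving out 1 sample at a time gave, for LPS in PB, -0.14 to 0.0946 for Il1b, 2.65 to 6.19 for Tnf (called without PBS-primed PB replicate 2) and 146 to 400 genes called. The lowest counts came without PBS-primed PB replicate 1 (159) or 2 (146). For LPS in BM it gave -0.33 to 0.19 for Il1b, -0.15 to 0.55 for Il1rn, -0.21 to 0.98 for Tnf, 1.43 to 2.47 for Acod1 and 2 to 28 genes. For PB against BM after PBS, Acod1 ranged from -0.53 to 0.51, Tnf from -4.47 (without PBS-primed PB replicate 2) to -0.93 (without replicate 1) and the genes called from 108 to 342. After LPS they ranged from 144 to 382, and for the difference from 80 to 168, with Il1b at -0.15 to 0.33 and Tnf at 2.39 to 5.94. The log2 ratio of PB against BM after LPS ranged from -0.12 to 0.061. A group left with 1 sample was assumed to vary like the others. Tnf rested on 12 to 663 UMIs per sample, which limits its precision.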
